A study of Homo sapiens with 4 samples.

Results

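The COP9 signalosome (CSN) subunits are described here in RNA sequencing of 22RV1 and PC3, established human prostate carcinoma cell lines. The 10 subunit genes, GPS1, COPS2, COPS3, COPS4, COPS5, COPS6, COPS7A, COPS7B, COPS8 and COPS9, were taken by name from the 60671 Ensembl genes listed. All 10 were found, and all 10 had at least 1 TPM in either library of each cell line. The set was chosen because COPS5 was lower with DDX52 knockdown in both lines, so the knockdown values of the subunits are a description and no test is attached to them. Each line carried a lentiviral short hairpin RNA, either a control sequence (shCON) or 1 sequence against the RNA helicase gene DDX52 (shDDX52), in stable transformants selected with puromycin. The design compares shDDX52 with shCON within each line, and the study asked which signaling depends on DDX52 in these cells. There was 1 library for each of the 4 conditions, so no value has a replicate check within its line, and no p-value or error is given. A fit over both lines, with line as a term, would have 1 residual degree of freedom and take the lines as replicates, and it was not made because the set was chosen on this contrast. Values are TPM, the authors' length-corrected share of transcripts in a library, scaled to a sum of 1000000. TPM keeps no sequencing depth, and the number of reads behind each value is unknown.

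The CSN removes the small ubiquitin-like protein NEDD8 from cullins. Cullins are the scaffolds of the cullin-RING ubiquitin ligases, which are active while they carry NEDD8, and cycles of adding and removing it let the ligases exchange the receptors that choose their substrates. COPS5, also called JAB1, holds the catalytic metalloprotease site in an MPN domain and pairs with COPS6, which has an MPN domain without that activity. GPS1, COPS2, COPS3, COPS4, COPS7A or COPS7B, and COPS8 carry PCI domains that build the body of the complex. COPS9 is a small acidic subunit. The lid of the proteasome and the translation initiation factor eIF3 are built from the same kinds of domain.

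DDX52 had 4.88 TPM with shCON against 1.2 TPM with shDDX52 in 22RV1, and 9.20 against 2.07 TPM in PC3. The labels of the lines were also checked. Of the luminal prostate markers, FOLH1 had 67.9 and 77.4 TPM in the 22RV1 libraries and 0.05 and 0.26 TPM in the PC3 libraries, and KLK3 had 6.84 and 4.51 TPM in 22RV1 and was at 0 in PC3. HOXB13 had 89.9 and 104.7 TPM in 22RV1 and 39.9 and 34.1 TPM in PC3. The 4 PC3 markers, VIM, CAV1, CD44 and ITGA3, summed to 1218.6 and 1322.2 TPM in PC3 and to 31.8 to 43.1 TPM in 22RV1, where CAV1 stayed under 1 TPM. CD44, ITGA3 and CAV1 carried that sum. With shCON first, VIM had 12.6 and 66.7 TPM in PC3 and 8.08 and 5.57 TPM in 22RV1. Its control levels differed between the lines less than those of CAV1, CD44 and ITGA3. In the same order, CD44 had 17.1 and 7.01 TPM in 22RV1. Genes annotated as rRNA held 1.21% and 0.0872% of the TPM in 22RV1 and 0.0923% and 3.13% in PC3, shCON first, and each rise in that share lowers every other TPM value of its library.

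In the GENCODE 29 annotation of GRCh38, the 10 genes are spread over several chromosomes and differ in size and base composition. Chromosome 17 holds GPS1 (82050691 to 82057470, plus strand) and COPS3 (17246820 to 17281293, minus strand). Chromosome 2 holds COPS7B (231781671 to 231809254, plus strand), COPS8 (237085312 to 237100466, plus strand) and COPS9 (240126563 to 240136807, minus strand). COPS4 is on chromosome 4 (83034447 to 83075818, plus strand), COPS6 on chromosome 7 (100088954 to 100092200, plus strand), COPS7A on chromosome 12 (6723741 to 6731875, plus strand) and COPS2 on chromosome 15 (49106068 to 49155661, minus strand). The place of COPS5 is given with its values. The genes COPS6, GPS1, COPS7A and COPS9 are compact, with spans of 3.25, 6.78, 8.13 and 10.2 kb, and their protein-coding transcripts have a mean GC content of 54.9% to 63.3%. The other 6 span 15.2 to 49.6 kb, with a mean GC content from 36.2% in COPS2 to 52.4% in COPS7B.

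Promoters were taken from RefSeq on GRCh38.p14 for 9 of the 10 genes, with 15 start sites among them, and the 250 bases before each start were searched on both strands. COPS5, the subunit that chose the set, had no promoter listed and was not searched. The letters CCGGAAG, the core of sites bound by ETS factors, were present before a start of 4 of the 9 genes, GPS1, COPS7A, COPS7B and COPS9, and in 10.2% of all 27305 genes with a promoter in the table. Counted by start site it was 4 of 15, beside 8.52% of all 35116. The GC content before the starts of these 4 genes was 54.0% to 82.4%, beside a median of 58.0% over all promoters. Base composition was not matched, so nothing is read from these shares. CACGTG, the E-box bound by MYC with MAX among other factors, was present in 1 of the 9, COPS7A, and in 7.73% of all genes. The palindrome bound by NRF1 was present in 0 of the 9 and in 1.28% of all genes. A match of letters is a description of the promoter and not a site shown to be bound. The stretches are shown because these 4 genes are described together with the others below. Capitals mark the matched letters, each line reads along the strand of the gene, and CTTCCGG is CCGGAAG on the other strand.
GPS1, chr17:82051859-82051887, plus strand: cgccccgcgccCCGGAAGcgacggcttcg
COPS7A, chr12:6724013-6724041, plus strand: cggaagtacggCCGGAAGcccgccataga
COPS7A, chr12:6724235-6724262, plus strand: gggggcggagcCACGTGtaagcttcaat
COPS7A, chr12:6724263-6724286, plus strand: gggggtgaggtCACGTGgttgtgg
COPS7B, chr2:231786384-231786412, plus strand: gcggtgggaggCTTCCGGgggagctgcac
COPS9, chr2:240136318-240136346, minus strand: tgtggcgcgcgCCGGAAGcggctctgagg
COPS9, chr2:240136306-240136328, minus strand: cggctctgaggCCGGAAGtgagc

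In the control cells, the subunit mRNAs were present at unequal levels. COPS6 was the most abundant in 22RV1 shCON at 261 TPM and COPS2 the least at 12.4 TPM, a 21.1-fold range. Between them lay GPS1 at 178, COPS9 at 143, COPS7A at 90.7, COPS3 at 64.7, COPS5 at 56.4, COPS7B at 27.4, COPS4 at 23.3 and COPS8 at 22.0 TPM. The 4 compact genes were the 4 most abundant in each of the 4 libraries and held 76.6% of the summed subunit TPM in 22RV1 shCON. In PC3 shCON, COPS6 was again the highest, at 220 TPM, next to COPS9 at 218 TPM, and COPS2 the lowest, at 16.3 TPM, a 13.5-fold range. GPS1 was 121, COPS7A 57.2, COPS3 51.3, COPS5 49.5, COPS8 34.4, COPS7B 31.8 and COPS4 23.4 TPM. With 1 library a line, neighbours in these orders cannot be separated from error. The catalytic subunit COPS5 was thus a minor part of the pool, and its MPN partner COPS6 had 4.63 times its TPM in 22RV1 shCON and 4.44 times in PC3 shCON.

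**Figure D1:**
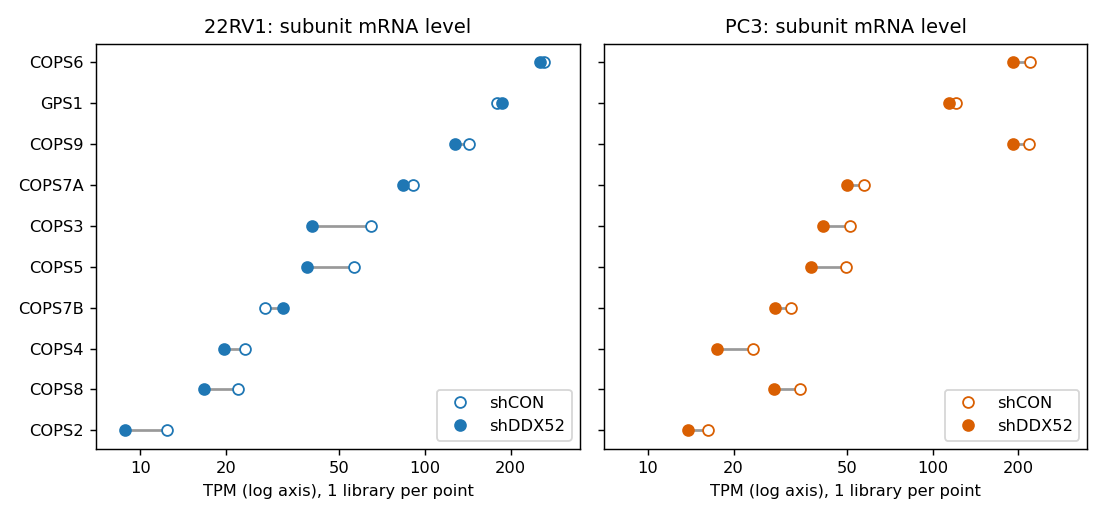
TPM of the 10 subunit genes (log axis) in 22RV1 on the left and PC3 on the right, 1 point per library, open for shCON and filled for shDDX52, ordered by the level in 22RV1 shCON. COPS6, GPS1, COPS9 and COPS7A are the 4 highest genes in each library, and in PC3 all 10 filled points lie to the left of the open ones.

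The control lines differed in single subunits more than in the sum. The subunits summed to 879.2 TPM in 22RV1 shCON and 822.7 TPM in PC3 shCON, which is 93.6% of the 22RV1 value. On the scale of log2(TPM + 1), the difference of PC3 from 22RV1 was −0.65 for COPS7A, −0.55 for GPS1 and −0.33 for COPS3. It was 0.62 for COPS8, 0.61 for COPS9 and 0.37 for COPS2. A difference is called lower or higher here from 0.32 in size on this scale, which for a lower value means that TPM + 1 is at most 80% of the other TPM + 1. By this mark 3 of 10 subunits were lower in PC3 and 3 of 10 higher, against 40.9% and 36.9% of 15727 genes tested, and the lines differ in many genes. The other 4 subunits, COPS4, COPS5, COPS6 and COPS7B, did not reach the mark. COPS3 missed it, at −0.26, after subtracting the median of all tested genes, and COPS2 missed it, at 0.314, on the TPM scale of nuclear protein-coding genes alone. COPS7A and COPS7B are alternative subunits for 1 place in the complex. COPS7B held 23.2% of their joint TPM in 22RV1 shCON and 35.7% in PC3 shCON.

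With shDDX52, most subunit mRNAs lay below their control in both lines, and 1 of 10, COPS5, was called lower in both. Changes are log2((TPM shDDX52 + 1) / (TPM shCON + 1)), named log2 ratios here, with the same mark of 0.32 for a gene called lower or higher. In 22RV1, 8 of 10 subunits were below their control by any amount, against 58.8% of the 14438 genes with at least 1 TPM, and 4 of 10 were called lower, against 22.6%. In PC3, 10 of 10 were below their control, against 53.5% of 14262 genes, and 2 of 10 were called lower, against 22.5%. The subunits called higher were 0 of 10 in each line, against 12.7% of genes in 22RV1 and 19.7% in PC3. In both lines at once, 8 of 10 subunits were below their control, against 32.5% of the 12175 genes tested in both, and COPS5 alone was called lower, against 5.22%. A further 2 subunits pointed in opposite directions, as 48.8% of genes did.

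The subunits are all abundant, so protein-coding genes with at least 10 TPM are a closer background, chosen after seeing the data. Of these, 58% in 22RV1 and 58.6% in PC3 were below their control by any amount, and 17.1% and 21% were called lower. In both lines at once the shares were 35.8% and 4.31%. As the set was chosen on this contrast, nothing is read from the counts against either background. In bulk RNA, fewer cells with a transcript and less transcript per cell cannot be told apart.

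The median log2 ratio of the subunits was −0.19 in 22RV1 and −0.21 in PC3, beside −0.076 and −0.036 for all genes tested. For protein-coding genes with at least 10 TPM it was −0.055 and −0.073. Without COPS5, the subunit that chose the set, the medians of the other 9 were −0.16 and −0.19. The summed subunit TPM was 879.2 in control and 806.6 in knockdown 22RV1 cells, which is 91.7%, and 822.7 and 714.1 in PC3, which is 86.8%. In PC3 these sizes moved with the scaling. Besides the rRNA share of 3.13% in PC3 shDDX52, mitochondrially encoded genes held 8.1% of the TPM with shCON against 10.3% with shDDX52, and protein-coding genes 96.0% against 91.0%. In 22RV1 the mitochondrial shares were 9.81% and 13.0% and the protein-coding ones 94.4% and 96.2%, and the part of each share in the values was not tested. When TPM was rescaled to nuclear protein-coding genes alone the PC3 median was −0.083. By that scaling 9 of 10 subunits were below their control and 0 of 10 were called lower, beside 40.3% and 13.7% of 12166 genes. All genes moved with the subunits, so the distance of the subunit median from that of all genes was −0.17 before and after. In 22RV1 that distance was −0.12 under both scalings.

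**Figure D2:**
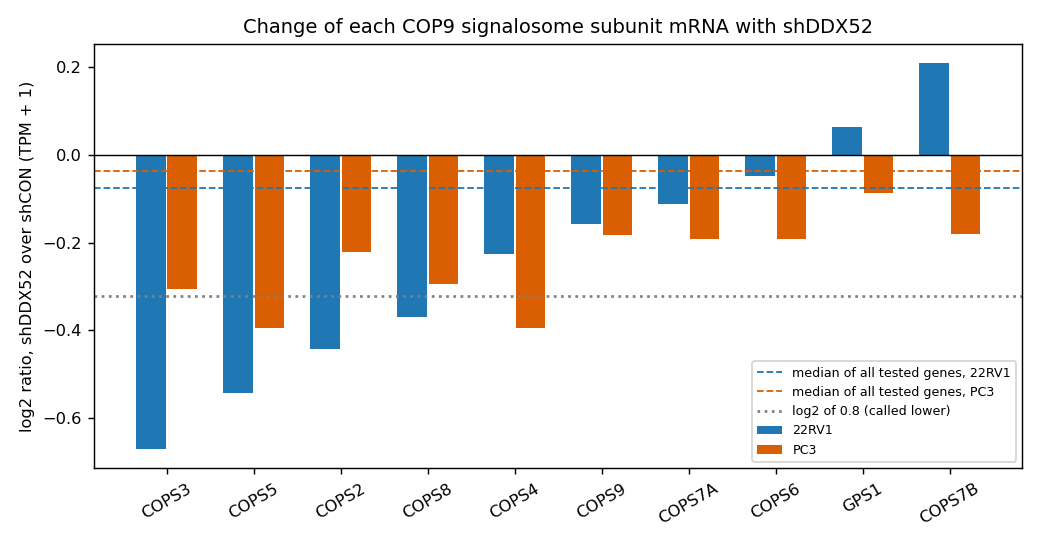
Log2 ratio (TPM + 1) of shDDX52 over shCON for each subunit, blue bars for 22RV1 and orange bars for PC3, ordered by the sum over both lines, with 1 library per condition and no error. Dashed lines mark the median of all tested genes in each line and the dotted line the mark of −0.32. COPS5 alone passes the dotted line in both lines, and GPS1 and COPS7B lie above 0 in 22RV1.

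Among the MPN subunits, the catalytic one differed more than its partner. COPS5 is the subunit that chose the set, so a larger fall in it was favoured in advance and nothing is read from the contrast. COPS5 lies on the minus strand of chromosome 8 (67043079 to 67083783). Its level was 56.4 TPM in control and 38.4 TPM in knockdown cells of 22RV1, and 49.5 and 37.4 TPM in those of PC3. The knockdown libraries were therefore at 68.0% and 75.6% of their controls, with log2 ratios of −0.54 and −0.39. COPS6 had 261 and 253 TPM in the 22RV1 libraries (log2 ratio −0.048) and 220 and 192 TPM in the PC3 libraries (log2 ratio −0.19), shCON first here and below. The COPS6 value in 22RV1 was close to 0. Its sign was the other one, at 0.027, after subtracting the median of all tested genes, and at 0.0085 when mitochondrially encoded genes and the 20 highest genes were left out of the TPM. The ratio of COPS6 to COPS5 TPM was 4.63 in control and 6.59 in knockdown 22RV1 cells, and 4.44 and 5.14 in PC3.

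Of the PCI subunits, COPS3 had the lowest log2 ratio of all 10 genes in 22RV1. There it had 64.7 and 40.2 TPM, so the knockdown library was at 62.2% of the control, a log2 ratio of −0.67. In the PC3 libraries it had 51.3 and 41.3 TPM (log2 ratio −0.31), which misses the mark of −0.32. With a stricter mark, a change of 1.5-fold, COPS3 in 22RV1 was the 1 subunit called lower in either line, beside 8.47% of genes in 22RV1 and 9.84% in PC3.

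COPS2, which contacts the cullin and its RING partner, was the least abundant subunit. Its 22RV1 libraries had 12.4 and 8.86 TPM (log2 ratio −0.44) and its PC3 libraries 16.3 and 13.8 TPM (log2 ratio −0.22). COPS8, a small PCI subunit, had 22.0 and 16.8 TPM in the 22RV1 libraries (log2 ratio −0.37) and 34.4 and 27.8 TPM in the PC3 libraries (log2 ratio −0.30). Both passed the mark in 22RV1 and not in PC3. The 22RV1 call of COPS8 was lost, leaving 3 of 10 subunits called lower, at −0.29 after subtracting the median of all tested genes and at −0.318 with the 20 highest and the mitochondrially encoded genes left out. COPS4, which takes part in sensing the substrate bound to the complex, went the other way round. For COPS4, 22RV1 gave 23.3 and 19.8 TPM (log2 ratio −0.23), and PC3 gave 23.4 and 17.6 TPM (log2 ratio −0.39). In PC3 the log2 ratios of COPS4 and COPS5 were equal to 2 decimals. Whether any of these differences between the lines exceeds error was not tested.

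GPS1 and COPS7B lay above their control in 22RV1 and below it in PC3. GPS1, the subunit called CSN1, had 178 and 187 TPM in the 22RV1 libraries (log2 ratio 0.064) and 121 and 114 TPM in the PC3 libraries (log2 ratio −0.086). On the TPM scale of nuclear protein-coding genes alone, the PC3 value of GPS1 was 0.043. For COPS7B the 22RV1 libraries had 27.4 and 31.8 TPM (log2 ratio 0.21) and the PC3 libraries 31.8 and 28.0 TPM (log2 ratio −0.18). Neither gene passed the mark in either line.

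COPS7A, the alternative to COPS7B, had 90.7 and 83.8 TPM in 22RV1 cells (log2 ratio −0.11) and 57.2 and 49.95 TPM in PC3 cells (log2 ratio −0.19). COPS7B therefore held 27.5% of the joint TPM of both genes in 22RV1 shDDX52, compared with 23.2% in shCON, and 35.9% in PC3 shDDX52, compared with 35.7%. The share was higher in 22RV1 knockdown cells and about the same in both PC3 libraries. COPS9, the small acidic subunit, had 143 and 128 TPM in 22RV1 cells (log2 ratio −0.16) and 218 and 192 TPM in PC3 cells (log2 ratio −0.18).

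The subunits furthest below their control were those of long genes. This grouping was made after the values were seen. COPS5, the subunit that chose the set, is among the long genes, so a low median there was favoured in advance. Nothing is read from the order of the medians. The 4 compact genes had log2 ratios from −0.16 to 0.064 in 22RV1, with a median of −0.081, and the 6 genes spanning more than 12 kb had values from −0.67 to 0.21, with a median of −0.41. COPS7B is the exception among the 6, and the other 5 lay between −0.67 and −0.23. In PC3 the compact genes lay between −0.19 and −0.086 and the 6 others between −0.39 and −0.18, with medians of −0.19 and −0.30. Over all protein-coding genes with at least 10 TPM, 1967 genes under 12 kb had a median of 0.00058 in 22RV1 and 4770 longer genes one of −0.083, the same order as in the subunits. In PC3 the order over all genes was the opposite one, with medians of −0.14 for 1938 short genes and −0.042 for 5145 longer ones. Gene span, GC content and level go together in these 10 genes, and their parts were not tested. The compact genes, which are also the abundant ones, held 80.7% of the summed subunit TPM in 22RV1 shDDX52 against 76.6% in shCON, and 76.8% against 74.9% in PC3.

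**Figure D3:**
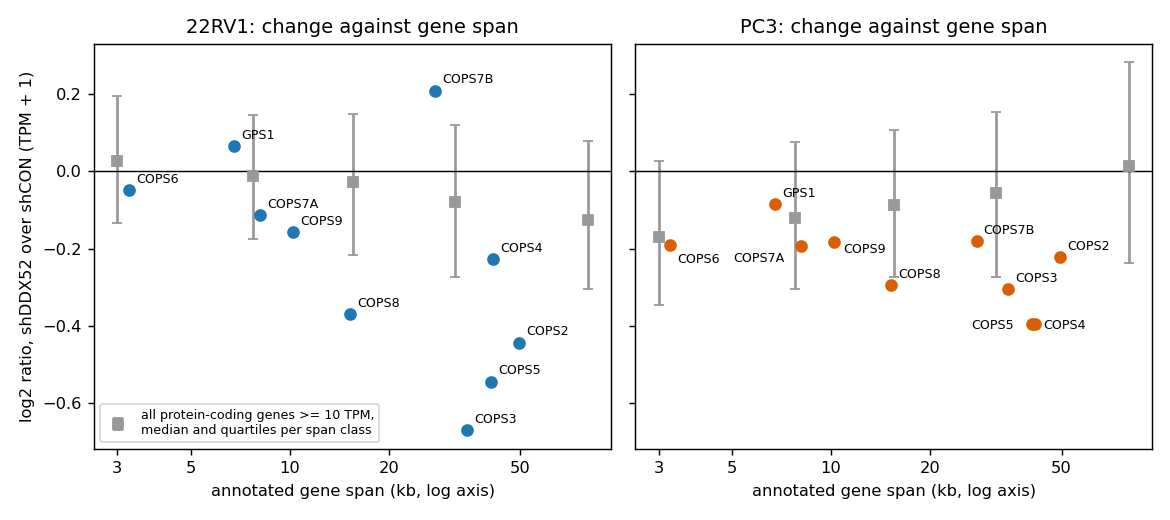
Log2 ratio (TPM + 1) of each subunit against the annotated span of its gene in kb (log axis), 22RV1 on the left and PC3 on the right. Grey squares with bars are medians and quartiles of all protein-coding genes with at least 10 TPM in 5 span classes, each drawn at a fixed place within its class. The 4 subunit genes under 12 kb lie between −0.19 and 0.064 in both lines, and 5 of the 6 longer ones lie lower than these 4 in 22RV1.

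Reads shared with other genes could touch some of these values. The named pseudogenes COPS5P1, COPS8P2 and COPS8P3 were listed at 0 in all 4 libraries. GPS1 shares 835 exonic bases with RFNG, a gene on the opposite strand, which had 39.3 and 43.9 TPM in 22RV1 and 22.4 and 18.8 TPM in PC3. COPS5 shares 129 exonic bases with CSPP1 on the opposite strand, which was between 1.54 and 4.64 TPM. COPS7B shares 72 bases with PDE6D, also on the opposite strand, at 24.3 to 40.5 TPM. COPS2 shares 6 bases with GALK2 on the opposite strand, at 10.6 to 19.2 TPM, and the other overlapping genes were under 1 TPM. The sources used here do not state whether strand was used in counting, so reads of these pairs may not be told apart, and the effect on the subunits was not tested.

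Genes of the cullin neddylation cycle, on which the CSN acts, were followed in a list of 35. Of these, 34 were tested in 22RV1 and 33 in PC3. SENP8, another protease of NEDD8, stayed under 1 TPM in all 4 libraries, and CAND2 had 0.09 and 0.06 TPM in PC3. In 22RV1, 21 were below and 12 above their control by any amount, 5 were called lower and 1 was called higher, and the median was −0.096. In PC3, 23 were below and 10 above, 8 were called lower and 2 were called higher, and the median was −0.20. Beside these counts, 58.8% of all genes in 22RV1 and 53.5% in PC3 were below their control. The shares of all genes called lower were 22.6% and 22.5%, and those called higher 12.7% and 19.7%. The summed TPM of the tested genes was 2298.0 and 2295.4 in 22RV1 and 2402.0 and 2084.3 in PC3. On the TPM scale of nuclear protein-coding genes alone, the PC3 median of the list was −0.075. By that scale 5 genes were called lower, beside 13.7% of all genes.

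Of the 33 genes tested in both lines, 1 was called lower in both, beside 5.22% of all genes. It was CUL2, the cullin scaffold used with VHL. Its 22RV1 libraries had 5.50 and 3.82 TPM (log2 ratio −0.43) and its PC3 libraries 50.1 and 36.5 TPM (log2 ratio −0.45). No gene of the list was called higher in both, and none was called in opposite directions. The shares of all genes called in these ways were not computed, so nothing is read from their absence here. NEDD8 itself had 313 and 297 TPM in 22RV1 cells and 325 and 300.1 TPM in PC3 cells. Among the enzymes that load NEDD8, NAE1, a subunit of the activating enzyme, was called lower in PC3 (−0.43). On the TPM scale of nuclear protein-coding genes alone, 5 genes of the list were called lower in PC3 in place of 8. NAE1 and CUL2 were not looked at singly on that scale, so their PC3 calls are for TPM as deposited. In 22RV1, 0 of the 5 genes for NEDD8 and its loading enzymes were called.

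In 22RV1 the lowest log2 ratios of the list belonged to co-E3 genes, whose products promote the transfer of NEDD8 to cullins. DCUN1D5 had 54.2 and 36.7 TPM (log2 ratio −0.55), DCUN1D2 7.37 and 4.84 TPM (−0.52) and DCUN1D4 3.91 and 2.54 TPM (−0.47). In PC3 their log2 ratios were −0.29, −0.25 and 0.15. DCUN1D4 was too low in 22RV1 to be tested with a minimum of 5 TPM. With that minimum, 3 genes of the list were called lower in 22RV1 in place of 5. DCUN1D1 and DCUN1D3 had log2 ratios of 0.025 and 0.00 in 22RV1. The highest log2 ratios in 22RV1 were those of the cullins CUL4B (0.45) and CUL7 (0.31) and of GLMN (0.30), an inhibitor that binds RBX1. In 22RV1, CUL4B had 4.45 and 6.43 TPM and GLMN 1.75 and 2.39 TPM, both low levels. Their log2 ratios in PC3 were −0.26 and −0.40.

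In PC3 the lowest log2 ratios were those of cullins and a receptor. CUL3, the scaffold used by BTB-domain receptors such as SPOP and KEAP1, had 46.3 and 24.0 TPM (log2 ratio −0.92). CUL9 had a log2 ratio of −0.62, and KEAP1, the receptor for the transcription factor NRF2, had 103 and 73.8 TPM (log2 ratio −0.48). These 3 genes had log2 ratios of −0.18, −0.13 and 0.17 in 22RV1. The highest were 3 receptors. FBXW11 had a log2 ratio of 0.62, VHL had 25.1 and 37.7 TPM (log2 ratio 0.57) and SKP2 had a log2 ratio of 0.30, beside −0.29, 0.0026 and 0.071 in 22RV1.

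**Figure D4:**
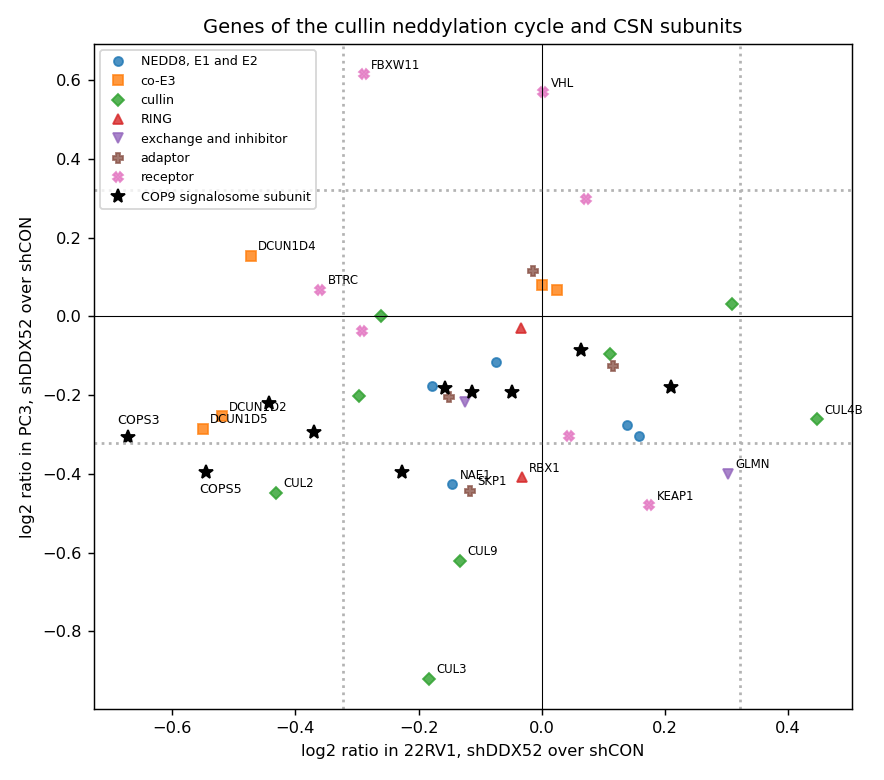
Log2 ratios (TPM + 1) of shDDX52 over shCON in 22RV1 (x axis) and PC3 (y axis) for the 33 genes of the cullin neddylation cycle tested in both lines, by role, with the 10 CSN subunits as black stars. Dotted lines mark 0.32 in either direction. CUL2 and COPS5 are the 2 genes past the line on the lower side in both cell lines, and DCUN1D5 lies far down in 22RV1 and CUL3 in PC3.

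The proteasome lid and eIF3 were set beside the CSN. The median log2 ratios of the 9 lid genes were −0.30 in 22RV1 and −0.18 in PC3, with 9 and 7 genes below their control by any amount and 3 and 2 called lower. The shares of all genes are 58.8% and 53.5% below their control and 22.6% and 22.5% called lower, for these and the eIF3 counts. Values ran from −0.39 (PSMD12) to −0.00020 (PSMD8) in 22RV1 and from −0.54 (SEM1) to 0.042 (PSMD8) in PC3. The 13 eIF3 genes had median log2 ratios of −0.15 and −0.20, with 10 and 11 genes below their control and 3 and 4 called lower. Their values ran from −0.64 (EIF3M) to 0.23 (EIF3F) in 22RV1 and from −0.84 (EIF3E) to 0.52 (EIF3F) in PC3. Beside them stand the CSN medians of −0.19 and −0.21. With 1 library a condition, no difference between the complexes was tested.

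**Figure D5:**
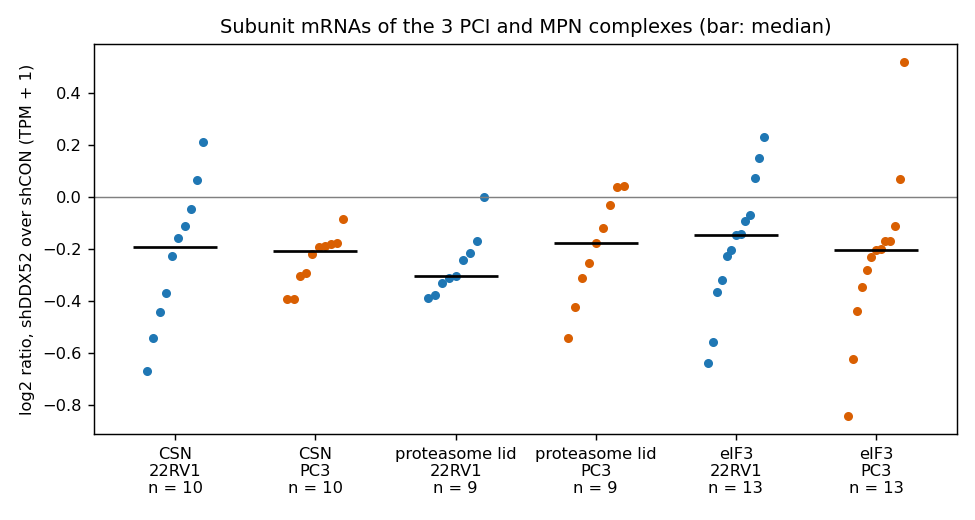
Log2 ratio (TPM + 1) of shDDX52 over shCON for every subunit gene of the CSN (10), the proteasome lid (9) and eIF3 (13), 22RV1 in blue and PC3 in orange, 1 point per gene, with a bar at the median. Medians lie between −0.30 and −0.15 in all columns, and the PC3 values of the CSN run from −0.39 to −0.086.

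COPS5 was also set beside other genes whose proteins carry an MPN domain. PSMD14, the deubiquitinase of the proteasome lid and the counterpart of COPS5 there, had 41.3 and 31.6 TPM in 22RV1 cells (log2 ratio −0.38) and 110 and 82.2 TPM in PC3 cells (log2 ratio −0.42). COPS5 and PSMD14 were the 2 of the 11 genes tested in both lines that were called lower in both, beside 5.22% of all genes, and COPS5 is the gene for which the set was chosen. On the TPM scale of nuclear protein-coding genes alone, COPS5 in PC3 was at −0.27 and lost its call. PSMD14 was not looked at singly on that scale, which also moved the PC3 values of the subunits and of all genes upward. The count of 2 is therefore for TPM as deposited and is not carried over to that scale. Over the tested genes of that list of 12, the values ran from −0.56 (STAMBP) to 0.47 (STAMBPL1) in 22RV1 and from −0.61 (MYSM1, 1.89 and 0.90 TPM) to 0.52 (EIF3F) in PC3.

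The genes whose level over the 4 libraries was most like that of COPS5 were found among 6868 protein-coding genes with at least 5 TPM in every library. The measure was the Euclidean distance between profiles of log2(TPM + 1), each centred on its own mean. The nearest 5 were MIA2 at 0.042, CCDC28A at 0.057, P4HB at 0.061, PSMC2 at 0.082 and XBP1 at 0.090. Of the other subunits, COPS3 was the nearest, at 0.12 and rank 12, and COPS4 the next, at 0.23 and rank 95. COPS8, at 0.78 and rank 3461, was the farthest. The distance takes in the difference between the lines as well as the change with shDDX52. Between the controls, PC3 differed from 22RV1 by 0.62 for COPS8 and by −0.18 for COPS5. The ranks therefore do not order the subunits by their change with shDDX52.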

How the data were processed

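RNA of 22RV1 and PC3 cells with shCON or shDDX52 was sequenced (4 libraries). Mapping was done by the authors on a cloud service, and the deposited values are TPM per Ensembl gene. The submitters' processing notes name CASAVA, HISAT2 and hg19, without their roles, and the quantification program and annotation are not given in the sources used here. The listed TPM summed to between 984448 and 990860 per library. Depth is unknown, so no count test or counting interval was possible. No model that takes the lines as replicates was fitted. All 10 subunits were matched to Ensembl identifiers by a table of gene names. GENCODE 29 on GRCh38, which lists 58453 of the 60671 identifiers, gave positions and gene types, and as the notes name hg19, those positions do not describe the authors' mapping. Log2 ratios used a pseudocount of 1, which understates changes of low genes, and a minimum of 1 TPM in the higher library of a line. Members and lists were chosen with earlier results of these data known. Named genes were the 10 members, DDX52, cullin cycle genes past the mark of 0.32 (log2) the same way or in opposite directions in both lines or among the 3 furthest down or up in a line, the extremes of the other lists and the 5 genes most like COPS5. NEDD8, DCUN1D1, DCUN1D3, SENP8, CAND2, NAE1 and the genes overlapping members were named after their values were seen. Some further markers of the lines are not reported here. Log2 ratios, calls and a median were tested on simulated TPM with known changes in abundant genes. That was a check of the code and did not cover the gene lists, sums or scalings. A search for a protease motif in protein sequences was planned and not made. Alternatives covered pseudocount, filter, scaling, centring, fold and members. The split by gene span and the limit of 10 TPM were chosen after seeing the data. Calculations used Python 3.11.15, numpy 2.4.6, pandas 2.3.3 and matplotlib 3.10.9.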

Additional observations from a re-analysis of the deposited data

Results flagged for a closer look

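For 2 subunits the library with shDDX52 lay above its control in 22RV1 and below it in PC3. COPS7B had log2 ratios of 0.21 and −0.18, a difference of 0.39 between the lines. GPS1 had log2 ratios of 0.064 and −0.086, a difference of 0.15. With 1 library per condition, neither difference was tested, and 48.8% of the 12175 genes tested in both lines also had opposite directions.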

How the results depend on the processing

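The 44 results were recomputed under 210 alternatives in all. Of these, 187 kept within 0.1 (log2), or within 1.5 times for a count, 23 moved further, and 0 that passed 0.32 (log2) turned their sign. Recomputing TPM over nuclear protein-coding genes moved 17 results, all in PC3, where the median of all genes went from −0.036 to 0.087. The subunit median became −0.083, the log2 ratio of the summed TPM −0.075 and the number called lower 0. Single subunits became −0.27 for COPS5, −0.27 for COPS4, −0.18 for COPS3, −0.17 for COPS8, −0.10 for COPS2, −0.066 for COPS7A, −0.062 for COPS6, −0.055 for COPS7B, −0.054 for COPS9 and 0.043 for GPS1. The cullin cycle median became −0.075 with 5 genes called lower, beside 13.7% of all genes. The lid median became −0.052 and the eIF3 median −0.076. With a fold of 1.5, the counts were 1 subunit in 22RV1 and 0 in PC3, and 0 and 2 cullin cycle genes, as fewer genes can pass a higher mark. With at least 5 TPM, which tests fewer genes, 3 cullin cycle genes were called lower in 22RV1. Without COPS5, 1 subunit was called lower in PC3. The other settings moved no result past these limits. Within 22RV1, the number of subunits called lower was 3 in place of 4 when centred on the median of all genes or with the 20 highest and the mitochondrially encoded genes left out, as COPS8 lost its call. No fit paired by line was made, since it would take the lines as replicates with 1 residual degree of freedom and the set was chosen on this contrast. With 1 library a condition, no replicate could be left out.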
